A study of Mus musculus with 10 samples.

Results

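The genes described here encode the machinery that docks, primes and fuses secretory and synaptic vesicles. They are the 92 protein-coding genes, of 22046 protein-coding genes and 54532 genes in all, whose symbols belong to the Snap, Stx, Stxbp, Vamp, Syt, Sytl, Cplx, Rims, Rimbp, Unc13, Cadps, Doc2, Sv2, Syngr and Syn families or are Bsn, Pclo, Erc1, Erc2, Syp or Synpr. They were chosen by symbol and not by level. RNA was sequenced from small intestinal cells of 5 Gucy2c-GFP mice, in which the Gucy2c promoter drives GFP. The mice were 10 weeks old, matched by litter and of strain CD1/ICR, an outbred strain. Every library carries this transgene, and none comes from mice without it. Flow cytometry sorted, from each mouse, 20000 cells with high GFP (GUCY2Chi) and 20000 cells with medium GFP (GUCY2Cmed). The labels also call the latter Lo. Each sort gave 1 library, so that each group holds 5 libraries, numbered 2, 7, 12, 14 and 15. A number is read here as the same mouse in both groups, an inference that the sample titles do not state.

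Vesicles fuse when SNARE proteins on the vesicle (R-SNAREs such as the VAMPs) zip together with SNAREs on the target membrane (syntaxins and SNAP25 or its relatives). SM proteins guide this assembly, synaptotagmins bind calcium and trigger it, complexins clamp it, and Munc13, CAPS, RIM, bassoon and piccolo prepare vesicles for release. Enteroendocrine cells use this machinery to release hormone from dense-core vesicles, neurons use it to release transmitter, and other epithelial cells use mostly broadly expressed paralogues to deliver membrane to the cell surface.

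Levels are TMM-scaled cpm, that is, counts divided by the scaled library size, listed in the order of mice 2, 7, 12, 14 and 15. Differences are log2 fold changes of GUCY2Chi over GUCY2Cmed with their standard errors (SE), from edgeR's quasi-likelihood test with Benjamini-Hochberg adjustment over the 15703 genes tested, and a call is an adjusted p under 0.01. Total counts were 13090212 to 13520800 per GUCY2Chi library and 10903958 to 15307932 per GUCY2Cmed library. The summed level of 8 enteroendocrine markers was 32583 to 126269 cpm in GUCY2Chi libraries and 107 to 277 cpm in GUCY2Cmed libraries, with 8 of 8 markers called higher. The summed level of 8 enterocyte markers was 36409 to 50097 cpm in GUCY2Cmed libraries. In the GUCY2Chi libraries of mice 12 and 15 it was 18552 and 19947 cpm, and in the other GUCY2Chi libraries 1892 to 2746 cpm. Gucy2c itself was 548 to 1756 cpm in GUCY2Chi and 322 to 483 cpm in GUCY2Cmed libraries. The RNA comes from pools of cells, so fewer cells of a type and less RNA per cell cannot be told apart.

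A second feature of the libraries is the level of forebrain neuron transcripts. Camk2a, which encodes a kinase subunit that is abundant in forebrain excitatory neurons, was 2.02, 30.5, 25.2, 2.54 and 81.7 cpm in GUCY2Chi libraries. In GUCY2Cmed libraries it was 35.3, 1.04, 43.8, 34.4 and 16.7 cpm. The groups overlapped, with a log2 fold change of 0.12 (SE 0.97, adjusted p = 0.949 by edgeR), while single libraries differed up to 78.4-fold. Nrgn, another forebrain neuron transcript, followed the same order at the extremes, from 8.90 cpm in the GUCY2Cmed library of mouse 7 to 932 cpm in the GUCY2Chi library of mouse 15. The summed level of 10 forebrain neuron markers was 46.0 to 1299 cpm in GUCY2Chi and 26.5 to 734 cpm in GUCY2Cmed libraries, and none of the 10 was called by edgeR, limma-voom or DESeq2, with none at an unadjusted p under 0.05. The summed level of 4 sensory neuron markers was 8.02 to 27.1 cpm in GUCY2Chi and 0 to 0.561 cpm in GUCY2Cmed libraries, and the 1 of them that was tested was called higher, while Scn10a had no count in any library. For some members the ratio to Camk2a is therefore given beside the level, and the source of the Camk2a transcripts was not tested.

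The promoters of 4 members are shown because they carry the contrasts described below: the neuronal t-SNARE Stx1a, the member Stxbp5l with the second highest log2 fold change, the priming factor Unc13a, and Snap23, the member that was lower. Each is 300 bases from RefSeq (GRCm38.p6), 250 before and 50 after the start, written 5′ to 3′ on the gene's strand. Capitals mark GGGCGG (the core of a GC box), CAGCTG and CAGATG (E-boxes of the kind bound by basic helix-loop-helix factors), TATAAA, and TCAGCACC and GGACAGC, the left and right parts of the RE1 element at which the repressor REST binds, on either strand. The intervals are chr5:135023232-135023531 (+), chr16:37384909-37385208 (-), chr8:71671708-71672007 (-) and chr2:120567421-120567720 (+).
Stx1a: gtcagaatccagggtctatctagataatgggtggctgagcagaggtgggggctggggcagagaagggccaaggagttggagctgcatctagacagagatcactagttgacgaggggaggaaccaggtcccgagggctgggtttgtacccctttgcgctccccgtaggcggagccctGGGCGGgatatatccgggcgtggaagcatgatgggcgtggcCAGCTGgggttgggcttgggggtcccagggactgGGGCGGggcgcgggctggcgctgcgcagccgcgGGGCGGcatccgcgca
Stxbp5l: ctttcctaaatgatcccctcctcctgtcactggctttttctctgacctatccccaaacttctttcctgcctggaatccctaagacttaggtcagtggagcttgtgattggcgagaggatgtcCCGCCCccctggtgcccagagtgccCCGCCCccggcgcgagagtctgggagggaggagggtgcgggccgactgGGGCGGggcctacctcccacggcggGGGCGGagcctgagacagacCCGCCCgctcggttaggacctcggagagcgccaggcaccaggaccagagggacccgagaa
Unc13a: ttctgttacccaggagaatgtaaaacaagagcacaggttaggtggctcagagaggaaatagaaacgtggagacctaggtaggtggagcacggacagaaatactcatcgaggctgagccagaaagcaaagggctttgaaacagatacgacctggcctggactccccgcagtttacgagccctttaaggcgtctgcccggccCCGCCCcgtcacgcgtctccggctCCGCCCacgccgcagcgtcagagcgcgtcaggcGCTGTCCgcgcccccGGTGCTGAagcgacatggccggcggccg
Snap23: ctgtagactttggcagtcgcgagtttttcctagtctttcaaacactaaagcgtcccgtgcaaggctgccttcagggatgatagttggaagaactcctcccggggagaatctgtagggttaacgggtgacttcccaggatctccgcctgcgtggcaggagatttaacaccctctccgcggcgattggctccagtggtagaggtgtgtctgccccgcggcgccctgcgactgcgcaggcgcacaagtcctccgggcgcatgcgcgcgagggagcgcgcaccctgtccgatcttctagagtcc
In the Unc13a promoter both parts of RE1 appear, as GCTGTCC and GGTGCTGA on the strand shown. Across 27025 genes with a promoter entry, 1.85% held TCAGCACC and 7.59% held GGACAGC. An entry was found for 69 of the 92 members, and 2 of them held the first and 5 the second. GGGCGG was in 49 of the 69 members and in 38.2% of all promoters, CAGCTG in 19 members and 18.3%, CAGATG in 11 members and 19.2%, and TATAAA in 3 members and 15.7%. The Snap23 promoter held none of these letters. These matches describe the sequence only.

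Of the 92 members 81 passed the filter on low counts and were tested. The 11 that did not were Syt2, Syt6, Syt8, Syt10, Syt15, Stx19, Vamp9, Doc2g, Cplx4, Rimbp3 and Syngr4, with at most 44 counts each over the 10 libraries. Adjusted p was under 0.01 for 17 members higher in GUCY2Chi cells, 21.0% of those tested, where 13.9% of all genes tested were called higher. Of the 17, Syt14 and Sytl5 passed the filter, over 0.5 cpm in at least 3 libraries, only through GUCY2Chi libraries. Their highest GUCY2Cmed levels were 0.450 and 0.468 cpm, so a fall could not have been tested. Snap23 was the 1 member called lower, 1.23% of those tested against 8.79% of all genes. The median log2 fold change was 0.74 over the 81 members and 0.09 over all genes tested. With the mouse number as a block, edgeR called 8 members higher (9.88% of those tested, against 8.24% of all genes) and again Snap23 lower (4.96% of all genes). Without both libraries of mice 12 and 15 it called 11 higher (14.3%, against 11.7%) and 5 lower (10.7% of all genes). The latter were Snap23, Vamp8, Vamp5, Sytl3 and Syt12. That fit ended 8 of the 17 calls, those of Cadps, Stx1a, Synpr, Syp, Syt5, Sytl5, Unc13a and Vamp4 (adjusted p from 0.0129 for Cadps to 0.0494 for Unc13a by edgeR), and added Stx18 and Sytl1. With at least 10 counts in every library, a filter that left 42 members, edgeR called 9 higher (21.4%, against 14.2% of all genes) and 1 lower (9.05% of all genes). The 9 hold 6 of the 17, with Stx16, Stx18 and Stxbp4 added, while this filter removed the other 11, among them Syt13 and Stxbp5l. Under the usual filter DESeq2 called 26 higher (32.1%, against 18.8%) and 5 lower (14.2% of all genes). On simulated data DESeq2 also called more unchanged genes than edgeR or limma-voom. With the Camk2a level of each library as a covariate edgeR called 25 higher (30.9%, against 16.3%) and 2 lower (12% of all genes), and all 17 were among the 25.

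**Figure D1:**
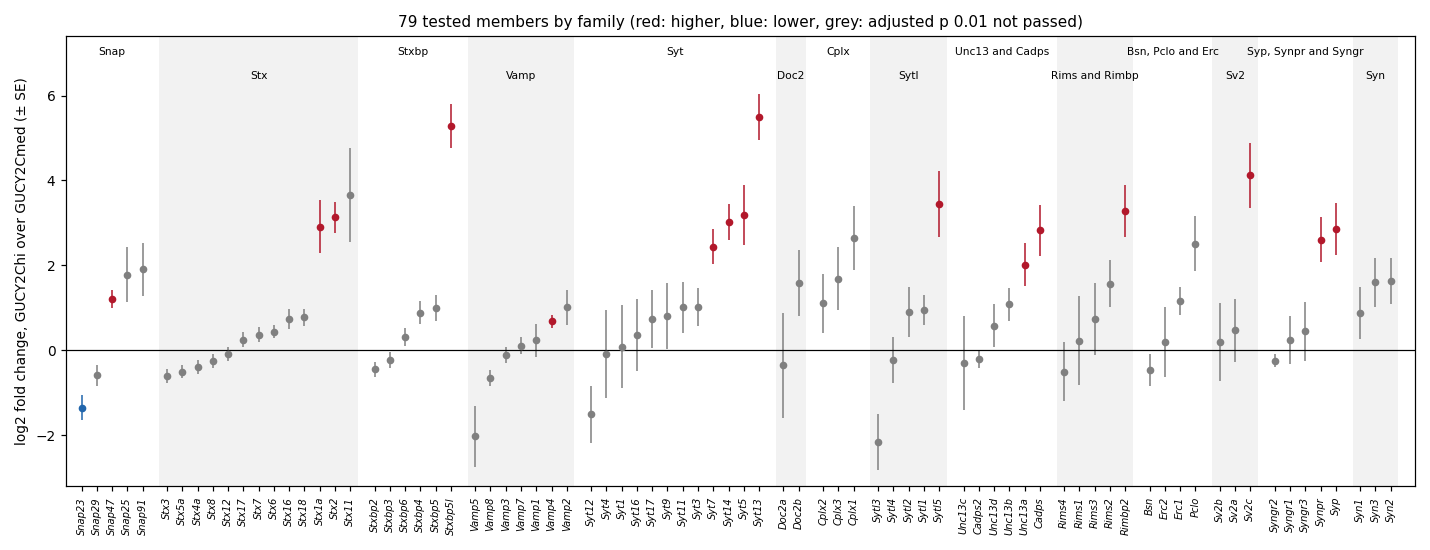
Log2 fold change of GUCY2Chi over GUCY2Cmed with its SE for 79 of the 81 tested members, grouped by family, from the edgeR fit. Red marks members called higher (16 of 17 are drawn), blue Snap23 as the 1 called lower and grey the rest; Syt13 (5.49) and Stxbp5l (5.28) stand at the top.

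The SNAP25 relatives, t-SNAREs that bridge syntaxin and VAMP, differed in opposite directions. Snap23 (ENSMUSG00000027287, chr2:120567671-120601255), the paralogue used for constitutive and epithelial exocytosis, was 26.7, 14.2, 43.9, 23.3 and 50.9 cpm in GUCY2Chi libraries and 83.4, 72.0, 83.5, 79.4 and 87.8 cpm in GUCY2Cmed libraries. It was lower in every GUCY2Chi library, with a log2 fold change of -1.35 (SE 0.30, adjusted p = 0.00464 by edgeR). Its GUCY2Chi levels were highest in mice 12 and 15, the libraries with the higher enterocyte marker levels. In the fit without both libraries of these mice the log2 fold change was -1.87 (adjusted p = 0.00120). The call held in 4 of 10 fits that each left out 1 library, with an adjusted p of at most 0.0201 in the others. Snap25 (ENSMUSG00000027273, chr2:136713453-136782428), the neuronal and endocrine paralogue, was 181, 291, 186, 228 and 257 cpm in GUCY2Chi libraries and 84.2, 2.41, 115, 86.3 and 44.4 cpm in GUCY2Cmed libraries. The groups did not overlap, but the log2 fold change of 1.78 (SE 0.65) had an adjusted p of 0.0477 by edgeR and was not called. Without the GUCY2Cmed library of mouse 7 it was called (log2 fold change 1.47, adjusted p = 0.00296 by edgeR). Snap47, a broadly expressed relative, rose from 34.0 ± 9.11 to 78.6 ± 10.7 cpm (SD, n = 5 each; log2 fold change 1.21, SE 0.21). Snap91 shares the symbol but encodes the clathrin adaptor AP180, which retrieves vesicle membrane after fusion. It was 20.0 to 39.0 cpm in GUCY2Chi and 0.241 to 12.6 cpm in GUCY2Cmed libraries, without overlap and without a call (adjusted p = 0.0289 by edgeR, and 0.00268 without the GUCY2Cmed library of mouse 7).

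Among 14 tested syntaxins 2 were called higher (14.3%, where 13.9% of all genes were). Stx1a (ENSMUSG00000007207, chr5:135023482-135051100), the syntaxin of synaptic and hormone release whose promoter is shown above, was 61.9, 76.5, 46.1, 73.3 and 44.7 cpm in GUCY2Chi libraries. In GUCY2Cmed libraries it was 9.26, 0.241, 12.5, 11.5 and 6.58 cpm. Its log2 fold change was 2.91 (SE 0.62, adjusted p = 0.00399 by edgeR, and 0.0191 with the mouse as a block), and the call held in 7 of 10 fits without a library (adjusted p up to 0.0146). Stx2, a syntaxin of epithelial and secretory cells, was 16.3, 14.4, 6.28, 12 and 5.91 cpm against 0.935, 1.60, 1.37, 1.05 and 1.28 cpm. The groups did not overlap, and the log2 fold change was 3.13 (SE 0.36, adjusted p = 9.67e-05 by edgeR). Unlike Stx1a, Stx2 did not share the low value of the GUCY2Cmed library of mouse 7. Stx3, the apical syntaxin of enterocytes, was 56.3 ± 8.40 cpm in GUCY2Chi and 85.0 ± 14.1 cpm in GUCY2Cmed cells without overlap (adjusted p = 0.0138 by edgeR). Stx11 had a log2 fold change of 3.66 (SE 1.11, adjusted p = 0.0216 by edgeR), but its level was at most 2.39 cpm and the groups overlapped.

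The Stxbp group of SM proteins and tomosyns had 2 of 7 members called higher (28.6%, against 13.9% of all genes). Stxbp5l (ENSMUSG00000022829, chr16:37114942-37384962), a tomosyn that binds syntaxin and SNAP25 and restrains SNARE assembly, was 26.4, 43.0, 54.6, 42.3 and 21.6 cpm in GUCY2Chi libraries and 1.68, 0.0802, 1.08, 1.13 and 0.855 cpm in GUCY2Cmed libraries. The lowest GUCY2Chi level lay above the highest GUCY2Cmed level, with a log2 fold change of 5.28 (SE 0.52, adjusted p = 3.44e-05 by edgeR). Stxbp2, an SM protein of epithelia, was not called, at 119 ± 24.4 cpm in GUCY2Chi and 163 ± 25.1 cpm in GUCY2Cmed cells (log2 fold change -0.45, SE 0.18). It held the largest share of the family per kilobase in both groups.

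Among 7 tested R-SNAREs 1 was called higher (14.3%, against 13.9% of all genes). Vamp4, an R-SNARE of the trans-Golgi network and of secretory granule maturation, rose from 28.4 ± 2.84 to 45.5 ± 9.10 cpm (log2 fold change 0.68, SE 0.16, adjusted p = 0.00738 by edgeR, and 0.0155 with the mouse as a block), and the call held in 4 of 10 fits without a library. Vamp2, the R-SNARE of synaptic and hormone vesicles, was 118, 192, 127, 130.2 and 232 cpm in GUCY2Chi libraries and 96.3, 19.6, 124, 100.1 and 56.5 cpm in GUCY2Cmed libraries. The groups overlapped by a small margin and the gene was not called (log2 fold change 1.01, SE 0.41, adjusted p = 0.0703 by edgeR). With Camk2a as a covariate its adjusted p was 0.00329. Vamp8, the R-SNARE of regulated secretion in epithelia, was 147, 123, 244, 139.9 and 176 cpm in GUCY2Chi libraries and between 248 and 271 cpm in GUCY2Cmed libraries. Without mice 12 and 15 it was called lower (log2 fold change -0.93, adjusted p = 0.00446 by edgeR), and with all libraries its adjusted p was 0.0186. Vamp3 and Vamp7, of recycling and late endosomes, had log2 fold changes of -0.11 (SE 0.19) and 0.11 (SE 0.20).

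Of 12 tested synaptotagmins 4 were called higher (33.3%, against 13.9% of all genes), among them Syt13, which had the largest log2 fold change of the tested members. Syt13 (ENSMUSG00000027220, chr2:92915098-92956058), an atypical synaptotagmin without the calcium-binding residues of the classical ones, was 146, 180.5, 84.8, 165 and 59.5 cpm in GUCY2Chi libraries and 3.65, 0.401, 3.81, 3.68 and 2.57 cpm in GUCY2Cmed libraries. No library overlapped, and the log2 fold change was 5.49 (SE 0.54, adjusted p = 3.42e-05 by edgeR). The means, 127 ± 52.4 and 2.82 ± 1.44 cpm (SD, n = 5 each), differed 45.1-fold. Syt5, a calcium sensor of dense-core vesicles, was 125, 99.5, 106, 120.0 and 64.9 cpm against 14.1, 0.160, 19.5, 14.9 and 7.78 cpm. It had a log2 fold change of 3.19 (SE 0.70, adjusted p = 0.00449 by edgeR, and 0.0141 with the mouse as a block), and the call held in 5 of 10 fits without a library. Syt7, a slow, high-affinity calcium sensor of hormone release, was 27.7, 49.7, 34.9, 36.0 and 24.3 cpm against 5.61, 1.52, 10.4, 7.88 and 6.33 cpm. Its groups did not overlap either (log2 fold change 2.44, SE 0.41, adjusted p = 0.00111 by edgeR). Syt14 rose at a low level, from 0.323 ± 0.108 to 2.71 ± 0.990 cpm (log2 fold change 3.03, SE 0.42). It passed the filter on low counts only through GUCY2Chi libraries.

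Syt1, the fast calcium sensor of synaptic vesicles in the forebrain, showed another pattern. It was 2.89, 41.4, 36.7, 2.54 and 112 cpm in GUCY2Chi libraries and 49.4, 1.84, 60.1, 52.1 and 20.5 cpm in GUCY2Cmed libraries. The log2 fold change was 0.09 (SE 0.98, adjusted p = 0.960 by edgeR), and its ratio to Camk2a stayed within a 1.74-fold range over all 10 libraries. Syt4 was 0.693 to 35.5 cpm in GUCY2Chi and 0.0802 to 24.5 cpm in GUCY2Cmed libraries, and Syt11 was 33.0 to 98.2 cpm and 2.17 to 46.2 cpm. Neither was called. Doc2a and Doc2b, related calcium sensors, were at most 2.47 cpm in any library and were not called.

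Of the complexins, the small proteins that hold assembled SNAREs until calcium arrives, none was called by edgeR or limma-voom. DESeq2 called 1 higher (Cplx1), where it called 18.8% of all genes higher, and 2 had an unadjusted p under 0.05. Cplx1 was 44.8, 81.4, 54.1, 82.0 and 49.7 cpm in GUCY2Chi libraries and 12, 0, 17.7, 13.3 and 7.01 cpm in GUCY2Cmed libraries. These did not overlap, and the adjusted p was 0.0160 by edgeR (log2 fold change 2.64, SE 0.75). Other edgeR fits called Cplx1, at an adjusted p of 0.00596 with the Camk2a covariate, 0.00964 without the filter on low counts and 3.79e-04 without the GUCY2Cmed library of mouse 7. Cplx2 overlapped, at 58.4 ± 21.5 and 27.1 ± 19.4 cpm. Of the synaptotagmin-like effectors of RAB27 (Sytl), Sytl5 rose from 0.200 ± 0.211 to 2.23 ± 1.07 cpm (log2 fold change 3.45, SE 0.78, adjusted p = 0.00546 by edgeR, and 0.0313 with the mouse as a block), and the call held in 6 of 10 fits without a library. Like Syt14, Sytl5 passed the filter on low counts only through GUCY2Chi libraries. Sytl3 was 1.48, 0.843, 15, 3.54 and 9.44 cpm in GUCY2Chi libraries and 16.0 to 38.4 cpm in GUCY2Cmed libraries, with an adjusted p of 0.0223 by edgeR. Its GUCY2Chi levels were also highest in mice 12 and 15, and without these mice it was called lower (log2 fold change -3.66, adjusted p = 0.00248 by edgeR).

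**Figure D2:**
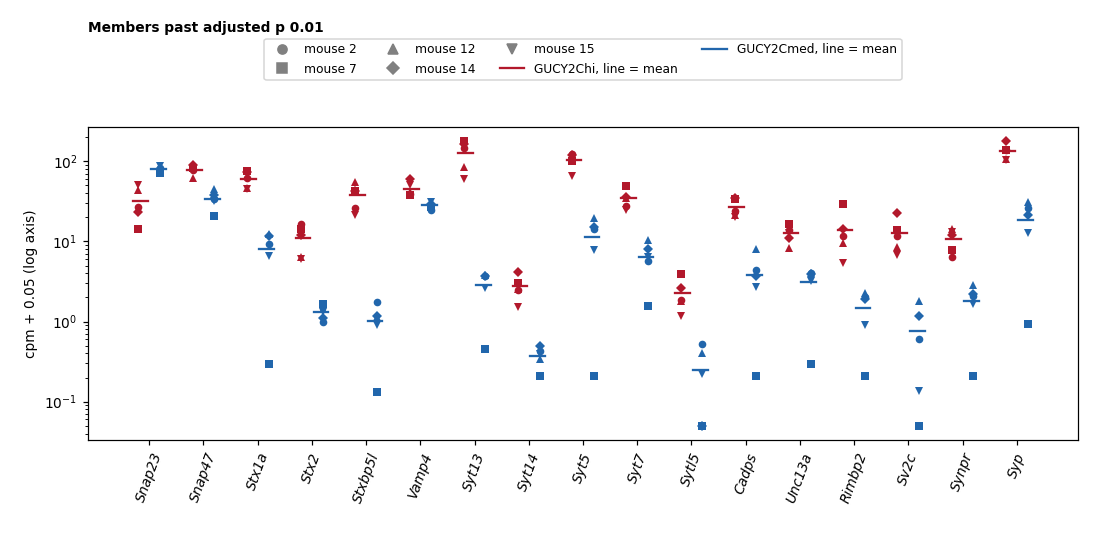
Level in cpm, with 0.05 added, on a log axis of 17 of the 18 members past an adjusted p of 0.01, 1 symbol per mouse and a line at each group's mean of 5 libraries. Snap23 is lower and the other 16 drawn are higher in GUCY2Chi (red) than in GUCY2Cmed (blue), and for many of them the GUCY2Cmed library of mouse 7 (square) is the lowest.

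Priming and active-zone genes were split. Cadps, which encodes the dense-core vesicle priming factor CAPS1, was 23.9, 33.9, 21.2, 34.7 and 20.1 cpm in GUCY2Chi libraries and 4.30, 0.160, 8.06, 3.60 and 2.65 cpm in GUCY2Cmed libraries. The lowest GUCY2Chi level was above the highest GUCY2Cmed level (log2 fold change 2.83, SE 0.60, adjusted p = 0.00407 by edgeR, and 0.0176 with the mouse as a block), and the call held in 6 of 10 fits without a library. Its paralogue Cadps2 was 9.79 ± 1.74 and 11.3 ± 1.76 cpm and was not called. Unc13a (Munc13-1), the main synaptic priming factor, was 14, 16.4, 8.24, 11.1 and 12.8 cpm against 4.02, 0.241, 4.03, 3.90 and 3.16 cpm. Its call was the closest to the threshold (log2 fold change 2.02, SE 0.51, adjusted p = 0.00953 by edgeR, and 0.0395 with the mouse as a block), and it held in 1 of 10 fits that left out a library, the one without the GUCY2Cmed library of mouse 7. Unc13b, Unc13c and Unc13d were not called. Rimbp2, which couples calcium channels to release sites, was 11.7, 29.0, 9.38, 14.1 and 5.28 cpm against 1.96, 0.160, 2.23, 1.88 and 0.855 cpm (log2 fold change 3.28, SE 0.61, adjusted p = 0.00195 by edgeR, and 0.0151 with the mouse as a block). The active-zone scaffold Pclo was 12.6 to 39.5 cpm in GUCY2Chi and 0.0802 to 6.12 cpm in GUCY2Cmed libraries and just missed the threshold (adjusted p = 0.0108 by edgeR, and 0.00172 without the GUCY2Cmed library of mouse 7). Its relative Bsn overlapped, at 7.68 ± 4.72 and 10.6 ± 2.19 cpm. Rims1, Erc2 and Unc13c, with log2 fold changes of 0.23 (SE 1.05), 0.20 (SE 0.82) and -0.29 (SE 1.11), kept their ratio to Camk2a within ranges of 7.08-fold, 3.69-fold and 10.1-fold over all libraries.

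Among vesicle membrane proteins, 1 of 3 tested Sv2 genes and 2 of 5 tested Syp, Synpr and Syngr genes were called higher, where 13.9% of all genes were. Sv2c (ENSMUSG00000051111, chr13:95954594-96132577), a transporter-like vesicle glycoprotein, was 11.6, 13.9, 8.47, 22.3 and 6.73 cpm in GUCY2Chi libraries and 0.561, 0, 1.73, 1.13 and 0.0855 cpm in GUCY2Cmed libraries. The groups did not overlap, with a log2 fold change of 4.12 (SE 0.77, adjusted p = 0.00197 by edgeR). Sv2b, by contrast, was 0.924 to 41.1 cpm and 0.642 to 21.6 cpm, and Sv2a 2.69 to 23.4 cpm and 0.561 to 11.8 cpm. Syp, which encodes the vesicle protein synaptophysin used as a neuroendocrine marker, was 138, 139, 107, 177 and 103 cpm against 26.2, 0.882, 30.7, 21.3 and 12.6 cpm. It was called higher (log2 fold change 2.86, SE 0.62, adjusted p = 0.00434 by edgeR, and 0.0150 with the mouse as a block), and the call held in 6 of 10 fits without a library. Its relative Synpr rose from 1.76 ± 0.992 to 10.7 ± 3.54 cpm (log2 fold change 2.60, SE 0.53), a call that held in 9 of 10 such fits but not without mice 12 and 15 (adjusted p = 0.0358 by edgeR). Syngr2, the broadly expressed member of that family, was 137 ± 21.8 and 162 ± 19.6 cpm. None of the synapsins, which tether synaptic vesicles to each other, was called by edgeR, limma-voom or DESeq2, and 2 of 3 had an unadjusted p under 0.05. Syn2 was 88.9 to 140.4 cpm in GUCY2Chi and 2.81 to 61.7 cpm in GUCY2Cmed libraries (adjusted p = 0.0346 by edgeR), and Syn1 was 9.86 to 33.7 cpm and 0.722 to 16.0 cpm with overlap (adjusted p = 0.295 by edgeR). With the Camk2a covariate edgeR called both, at an adjusted p of 0.00519 for Syn2 and 0.00935 for Syn1, and without the GUCY2Cmed library of mouse 7 it called Syn2 (0.00288).

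Within a family, the member with the highest mean share of the summed cpm per kilobase of transcript differed between the groups in 9 of the 14 families, and the member with the highest mean cpm per kilobase in 7. In the Snap family Snap25 took 42.4% ± 4.96 in GUCY2Chi cells (SD, n = 5), within the spread of Snap47 at 37.6% ± 4.13, and Snap23 39.6% ± 9.97 in GUCY2Cmed cells. Syt5 (41.8% ± 9.61) and Syt13 (31.7% ± 10.4) led the synaptotagmins in GUCY2Chi cells, in an order within their spread. In GUCY2Cmed cells Syt11 (22.9% ± 2.77), Syt5 (17.6% ± 8.17) and Syt1 (17.5% ± 4.73) led, also in an order within their spread. The largest mean complexin share was that of Cplx2 (62.3% ± 21.6) in GUCY2Cmed and of Cplx1 (70.1% ± 9.56) in GUCY2Chi cells. The order of Cplx1 and Cplx2 in GUCY2Cmed cells was within their spread. In the GUCY2Cmed library of mouse 7, Cplx2 had 9 counts and Cplx1 had 0. Over the GUCY2Cmed libraries the ratio to Camk2a stayed within 1.57-fold for Cplx2, 1.95-fold for Syt11 and 1.52-fold for Sv2b. Among Unc13 and Cadps genes Cadps (36.3% ± 7.01) led in GUCY2Chi cells and Cadps2 (48.6% ± 4.41) in GUCY2Cmed cells. Among the Sytl genes it was Sytl1 (62.3% ± 17.0) and Sytl3 (57.2% ± 9.15). In the Doc2, Rims, Erc and Sv2 families the order at the top was also within the spread. Doc2b (70.7% ± 28.7) led in GUCY2Chi cells, and Doc2a (46.2% ± 33.9) and Doc2b (44.7% ± 38.3) were close in GUCY2Cmed cells. Rimbp2 (46.6% ± 20.6) led the Rims and Rimbp genes in GUCY2Chi cells, and Rims1 (37.1% ± 21.3) and Rims4 (27.4% ± 35.6) in GUCY2Cmed cells. Pclo (31.9% ± 15.4), Erc1 (29.9% ± 9.27) and Erc2 (24.7% ± 20.7) were close in GUCY2Chi cells, as were Erc2 (37.7% ± 16.7) and Bsn (33.8% ± 14.4) in GUCY2Cmed cells. Sv2c (38.1% ± 28.9) and Sv2a (36.7% ± 11.5) were close in GUCY2Chi cells, and Sv2a (50.5% ± 9.13) and Sv2b (47.8% ± 9.21) in GUCY2Cmed cells. In other families the leader was shared. Stx7, an endosomal syntaxin, took 30.6% ± 2.50 and 27.6% ± 1.45, and Stxbp2 47.6% ± 3.01 and 67.8% ± 2.11. Vamp8 took 30.5% ± 5.95 and 44.8% ± 3.19, and Syngr2 68.6% ± 5.93 and 89.7% ± 6.13. In GUCY2Chi cells the lead of Vamp8 over Vamp3 (26.9% ± 4.62) was within the spread.

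**Figure D3:**
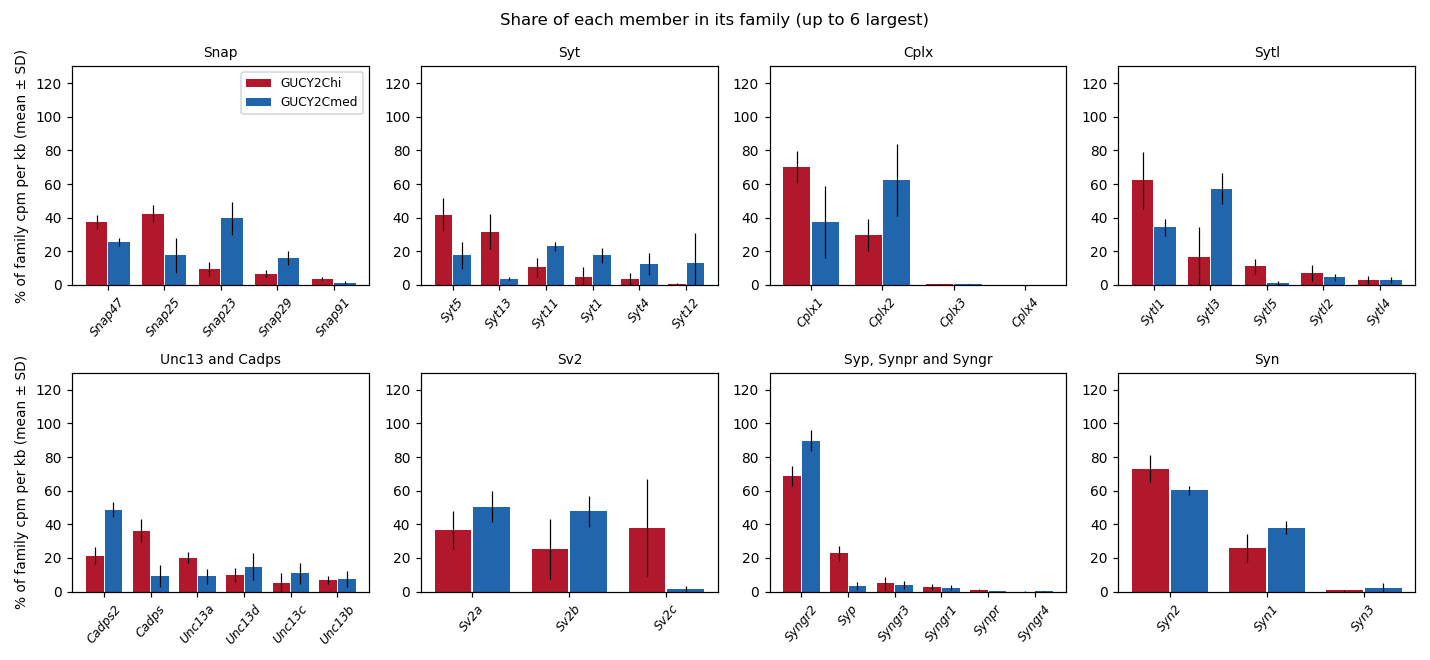
Share of each member in the summed cpm per kilobase of its family, in percent, mean and SD of 5 libraries per group, for 8 families and up to 6 members each. By mean share Snap25, Syt5, Cplx1, Sytl1 and Cadps lead in GUCY2Chi (red), and Snap23, Syt11, Cplx2, Sytl3 and Cadps2 lead in GUCY2Cmed (blue). The lead of Snap25, Syt5, Syt11 and Cplx2 lies within the spread.

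To compare paralogues free of library scaling, the log2 ratio of their counts was taken within each library, with 0.5 added to each count, for 10 pairs. The pairs were chosen with earlier results of these data known. A sign-flip test that keeps the libraries of 5 mice paired could not give a p below 0.0625 and was not run. Exact two-sided permutation tests of 5 libraries against 5 take the libraries of a mouse as independent and cannot give a p below 0.00794. For 7 pairs the ratio was higher in every GUCY2Chi library than in any GUCY2Cmed library and in 5 of 5 mice, each at this smallest p (0.0113 adjusted over the 10 pairs by the exact permutation test). In 6 of them the mean log2 ratios differed by 4.22 for Stx1a over Stx3, 4.02 for Snap25 over Snap23, 3.76 for Syp over Syngr2, 3.70 for Cadps over Cadps2, 3.05 for Syt13 over Syt7 and 1.91 for Vamp2 over Vamp8. Without the GUCY2Cmed library of mouse 7 these differences were 3.14, 3.06, 2.79, 2.91, 2.91 and 1.49 in the same order, each at p = 0.0159 by the exact permutation test, the smallest that 5 libraries against 4 can give. Scaled for length, Snap25 was 4.29, 12.9, 2.68, 6.18 and 3.19 times Snap23 in GUCY2Chi libraries and 0.638, 0.0215, 0.869, 0.688 and 0.320 times in GUCY2Cmed libraries. The ratio of Stx1a to Stx3 was 1.77 to 3.52 and 0.00616 to 0.407. Per length, Vamp8 exceeded Vamp2 in all libraries, with ratios of Vamp2 to Vamp8 of 0.316 to 0.944 and 0.0480 to 0.280. Syt13 was 4.69 to 10.2 times Syt7 in GUCY2Chi and 0.546 to 1.26 times in GUCY2Cmed libraries. The remaining pairs overlapped: the log2 ratio of Unc13a over Unc13d differed by 1.95 (p = 0.0635, adjusted 0.0794, exact permutation test), Rims2 over Rims1 by 1.63 (p = 0.175, adjusted 0.194, exact permutation test) and Sytl4 over Sytl1 by -1.0 (p = 0.230, adjusted 0.230, exact permutation test).

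**Figure D4:**
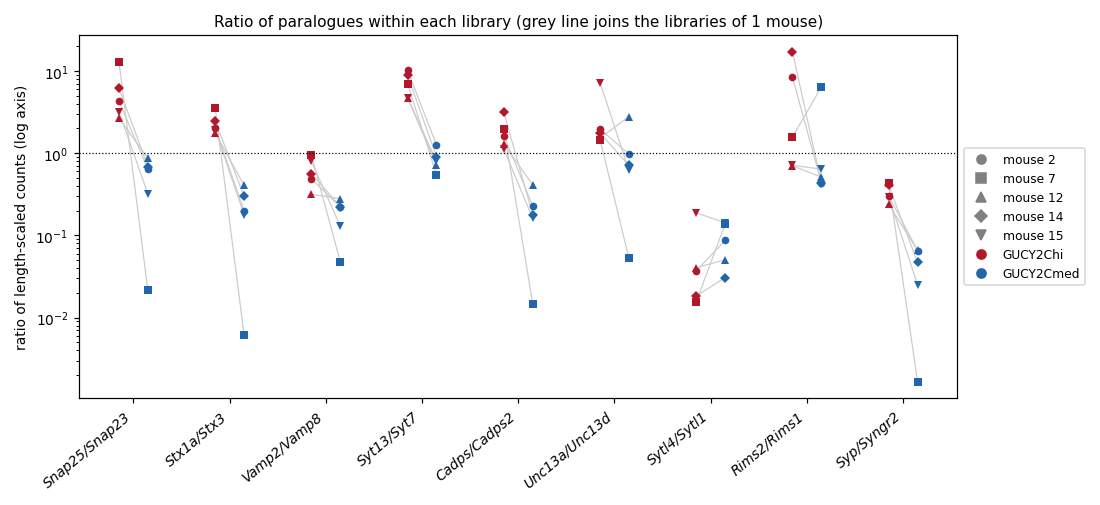
Ratio of length-scaled counts of 9 of the 10 paralogue pairs in each of 10 libraries, on a log axis, with grey lines joining the libraries of 1 mouse. For 6 pairs every GUCY2Chi library (red) lies above every GUCY2Cmed library (blue); Unc13a/Unc13d, Sytl4/Sytl1 and Rims2/Rims1 overlap, and the GUCY2Cmed library of mouse 7 is lowest in all 6.

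Set against Camk2a, the members fell into different patterns. In the GUCY2Cmed libraries 12 members kept a ratio to Camk2a within 2-fold while Camk2a itself ran from 1.04 to 43.8 cpm, which was 14.8% of the members tested and 2.46% of all genes tested. Among them were Snap25, Snap91, Stx1a, Syt1, Syt11, Cplx2, Cadps, Sv2b, Syngr3, Syp and Syn1, and this measure was chosen after the values were seen. Snap25 was 2.26 to 2.66 times Camk2a in GUCY2Cmed libraries and Syp 0.621 to 0.852 times. In GUCY2Chi libraries the same ratios were 3.15 to 88.6 and 1.26 to 68.6. Over all 10 libraries 3 members stayed within 4-fold of Camk2a, 3.70% of those tested against 1.46% of all genes: Syt1 (1.74-fold), Sv2b (2.33-fold) and Erc2 (3.69-fold).

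The ratio to Camk2a was higher in every GUCY2Chi library than in any GUCY2Cmed library for 11 members, 13.6% of those tested against 1.53% of all genes. Without the GUCY2Chi library of mouse 15 it was 19 members (23.5%, against 4.82% of all genes), and with at least 10 counts in every library 2 of 42 (4.76%, against 0.219%). Without the GUCY2Cmed library of mouse 7, which had the lowest Camk2a level, it was 16 members (19.8%, against 6.79% of all genes). The 11 were Snap25, Snap91, Stx1a, Stxbp5l, Syt5, Syt13, Cplx1, Cplx2, Cadps, Sv2c and Syp. No member was lower in this way, where 0.229% of all genes were, and the other 70 overlapped. Camk2a ran from 1.04 to 43.8 cpm in GUCY2Cmed libraries, so members that did not follow it there could hardly pass. Stx2, for one, overlapped at a ratio range of 54.6-fold in these libraries, although it was called higher. An overlap here thus does not mean that a level did not differ. Levels alone did not overlap for 25 members higher in GUCY2Chi libraries (30.9%, against 16.7% of all genes) and 6 lower (7.41%, against 13.2%). The members lower without overlap were Snap23, Stx3, Stx5a, Vamp5, Vamp8 and Sytl3. Stx5a, a Golgi syntaxin, was 85.3 ± 13.0 and 121 ± 14.6 cpm, and Vamp5 2.52 ± 2.93 and 10.2 ± 2.70 cpm.

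**Figure D5:**
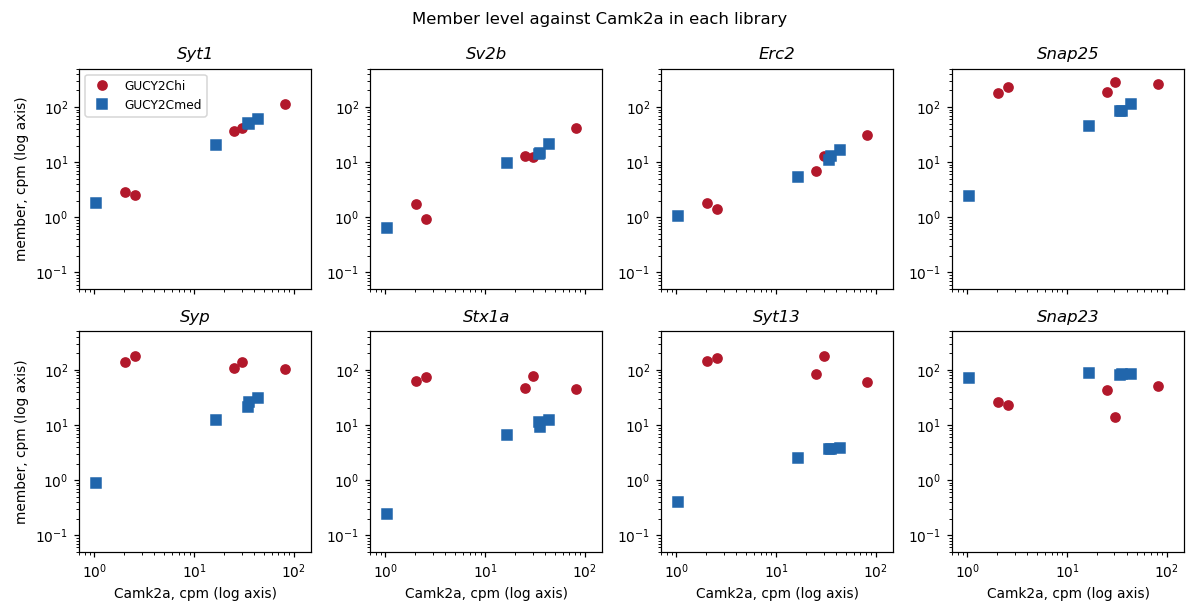
Level of 8 members against that of Camk2a in each library, in cpm on log axes, with GUCY2Chi libraries as red circles and GUCY2Cmed libraries as blue squares. Syt1, Sv2b and Erc2 lie along 1 line in both groups; Snap25, Syp and Stx1a lie along a line in GUCY2Cmed and above it in GUCY2Chi; Snap23 does not follow Camk2a in GUCY2Cmed, where it stays between 72.0 and 87.8 cpm.

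Genes outside the symbol rule that act with this machinery were counted from lists. Of 28 tested partners of fusion, 6 were called higher (21.4%, against 13.9% of all genes) and 2 lower (7.14%, against 8.79%), with a median log2 fold change of 0.41. Those higher were Rab3b (4.84), Rab3c (3.05) and Rab3d (2.77), small GTPases of secretory vesicles, Rab27a (1.40), which tethers granules, Rph3al (3.71), a RAB3 and RAB27 effector, and Ppfia4 (2.09), a liprin of release sites. Rab3d rose from 31.9 ± 7.51 to 219 ± 88.2 cpm. The lower ones were the scaffold Cask (-0.81) and the carrier protein Scamp2 (-0.74). Adjusted p with the mouse as a block was 0.0115 for Rab3c, 0.0109 for Rab27a, 0.0191 for Ppfia4, 0.0107 for Cask and 0.0126 for Scamp2. Of 10 fits that each left out 1 library, Scamp2 was called in 5, Ppfia4 in 8 and the other 6 genes in all. None of 15 SNAREs of other routes and their SM proteins was called by edgeR, with a median log2 fold change of -0.25. At an unadjusted p under 0.05, 5 of them were lower. Of these 15 genes limma-voom called 2 lower (11.4% of all genes) and DESeq2 3 (14.2% of all genes). None of 9 subunits of the exocyst, which tethers vesicles to the plasma membrane, was called by edgeR or limma-voom (median 0.14). Here DESeq2 called 1 higher (18.8% of all genes), and 2 higher and 1 lower had an unadjusted p under 0.05. No share of all genes was counted at an unadjusted p, here or for the families above.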

How the data were processed

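RNA of 10 libraries, 5 GUCY2Chi and 5 GUCY2Cmed, was analysed from read counts per gene. The authors deposited raw counts, in whole numbers, which the sequencing provider had made from reads aligned with STAR. The 20 other columns of per-library values (FPKM, and values attached to the provider's own comparison) were not used. The comparisons deposited by the provider and by the authors (limma 3.40.6 and edgeR 3.26.8 per the submitters' processing notes) hold log2 fold changes, p-values and adjusted p-values, and were not used. The labels name the build mm9, whereas 91 of 92 members lie at their GRCm38.p6 position, so positions are on GRCm38.

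Genes over 0.5 cpm in at least 3 libraries (15703 of 54532) were tested in R 4.3.3 with edgeR 4.0.16 (TMM, quasi-likelihood, no term for the mouse, Benjamini-Hochberg adjusted p under 0.01; biological coefficient of variation 0.458). limma 3.58.1 (voom) and DESeq2 1.42.0 were alternatives. Ratios were compared in Python 3.11.15 with scipy 1.17.1 by exact permutation tests, at a p under 0.05. The fits were tested on simulated data, where known fold changes were recovered without bias; at the spread of these libraries most changes of 2-fold size and a part of those of 4-fold size were missed by edgeR. There the fit with the block called none of the changes of either size. DESeq2 called more of them there, together with more unchanged genes than the other fits, so its extra calls are less certain. The simulation changed far fewer genes than edgeR called in the real libraries and put in no mouse effect. Its rates of recovery may therefore not carry over to them. In the libraries of this study the fit with the block called 8.24% of all genes higher and 4.96% lower. Why it ended calls of members was not tested.

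The mouse numbers are the library numbers in the sample titles, which do not say that a number is a mouse. Because 5 mice were sorted into both groups, libraries sharing a number were assumed to be a pair from the same mouse. This pairing is an inference. Deviations from the group means correlated within mice 2, 7, 12, 14 and 15 at -0.0743, -0.173, 0.270, -0.101 and 0.0505. Named members are those past the threshold, those of the 10 pairs and the leading member of each family per kilobase in each group, with Camk2a and Nrgn; others are named with values where a family is described and were chosen after their values were seen. The members, lists, pairs and tests were chosen with earlier results of these data known. Values of a few genes that enter the counts of members and pairs are not shown here.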

Additional observations from a re-analysis of the deposited data

Results flagged for a closer look

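In each group of 5 libraries the highest and lowest level of each of the 81 tested members were compared with their nearest neighbour, relative to the range of the group (Dixon's ratio). Of 162 groups 8 held a library that stood apart, and chance alone gives about 1 in 20. In GUCY2Cmed libraries, mouse 7 held the lowest Unc13a (0.241 cpm, next 3.16) and the lowest Syt3 (0.401 cpm, next 1.88), and the highest Rims4 (4.73 cpm, next 1.58) and Stx18 (30.3 cpm, next 23.0). Mouse 14 held the highest Stx11 (0.375 cpm, with no count in the others) and mouse 2 the highest Stxbp5 (22.9 cpm, next 13.7). In GUCY2Chi libraries, Sytl2 was highest in mouse 2 (27.5 cpm, next 8.37) and Doc2a in mouse 15 (1.51 cpm, next 0.301). The GUCY2Cmed library of mouse 7 also had the lowest Camk2a level (1.04 cpm). In the edgeR fit without that library Unc13a kept its call (log2 fold change 1.72 against 2.02 with it; adjusted p = 6.44e-04), Stx18 gained one (0.89 against 0.78; adjusted p = 0.00782), and Syt3 (0.77 against 1.02; adjusted p = 0.117) and Rims4 (0.30 against -0.50; adjusted p = 0.763) were not called in either fit.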

How the results depend on the processing

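Among 815 refits of 40 named members none reversed a direction with a call, 66 ended a call and 22 added one. Shares of all genes called in the same fit and direction stand in brackets. The count of members higher, 17 of 81 (13.9%), was 26 with DESeq2 (18.8%), 8 in edgeR with mouse as the replicate block (8.24%), 9 of 42 with at least 10 counts in every library (14.2%), 11 of 77 without mice 12 and 15 (11.7%) and 31 at an adjusted p under 0.05 (21.4%). As shares of the members tested these counts were 21.0%, 32.1%, 9.88%, 21.4%, 14.3% and 38.3%, in the same order. Leaving out 1 library gave 9 to 22, with 11 without GUCY2Cmed mouse 14 (10.6%), 9 without GUCY2Cmed mouse 15 (10.8%) and 22 without GUCY2Cmed mouse 7 (13.0%). These 11, 9 and 22 members were 13.8%, 11.1% and 27.2% of those tested. The count lower, 1 (8.79%), was 3 with limma-voom (11.4%), 5 with DESeq2 (14.2%), 2 with the replicate block in limma-voom (8.80%), 0 with library size only (3.57%), 5 without mice 12 and 15 (10.7%), 2 with the Camk2a covariate (12%) and 6 at an adjusted p under 0.05 (17.6%), and leaving out 1 library gave 0 to 4. It was 0 without GUCY2Chi mouse 2 or 14 or without GUCY2Cmed mouse 2, 12, 14 or 15 (3.32% to 4.86%), and 4 without GUCY2Chi mouse 12 (9.10%). The replicate block ended 9 calls in edgeR, among them Cadps, Rimbp2, Stx1a, Syp, Syt5, Sytl5, Unc13a and Vamp4, and those of Sytl5, Unc13a and Vamp4 in limma-voom, and changed no other call among the 18 members. A block in the permutation test of 5 mice could not give a p below 0.0625 and was not run. Scaling by library size only moved the median of all genes from 0.09 to 0.39 and that of the members from 0.74 to 1.03. Paralogue ratios kept their direction in all settings, and 3 that missed the threshold passed it without 1 library: Unc13a over Unc13d (1.09 to 2.52; 2.52, p = 0.0159 by exact permutation test, without GUCY2Cmed mouse 12), Rims2 over Rims1 (0.95 to 2.37; 2.37, p = 0.0159 by exact permutation test, without GUCY2Cmed mouse 7) and Sytl4 over Sytl1 (-1.58 to -0.68; -1.58, p = 0.0476 by exact permutation test, without GUCY2Chi mouse 15). The count of 11 members with a ratio to Camk2a free of overlap (1.53% of all genes higher) was 2 of 42 with at least 10 counts in every library (0.219%), where fewer members were left. It was 11 to 19 without 1 library, with 19 without GUCY2Chi mouse 15 (4.82% of all genes) and 16 higher without GUCY2Cmed mouse 7 (6.79%). Leaving out 1 GUCY2Chi library ended the calls of Snap23, Syt5 and Unc13a without GUCY2Chi mouse 2, of Stx1a, Sytl5, Cadps, Unc13a and Syp without GUCY2Chi mouse 7, of Vamp4 and Unc13a without GUCY2Chi mouse 12, of Snap23, Vamp4, Syt5, Sytl5, Unc13a and Syp without GUCY2Chi mouse 14, of Unc13a without GUCY2Chi mouse 15. Leaving out 1 GUCY2Cmed library ended those of Snap23, Stx1a, Vamp4, Syt5, Cadps and Unc13a without GUCY2Cmed mouse 2, of Vamp4 without GUCY2Cmed mouse 7, of Snap23 and Unc13a without GUCY2Cmed mouse 12, of Snap23, Vamp4, Syt5, Sytl5, Cadps, Unc13a and Syp without GUCY2Cmed mouse 14, of Snap23, Stx1a, Vamp4, Syt5, Sytl5, Cadps, Unc13a, Synpr and Syp without GUCY2Cmed mouse 15. On leaving out libraries, folds of called members that moved by over 1.5 times were those of Cadps (3.52), Sv2c (4.78) and Sytl5 (4.17) without mice 12 and 15 and of Sv2c (4.80) without GUCY2Cmed mouse 12. Apart from fewer genes or libraries, the cause of these changes was not tested.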

Other observations

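Marker lists of other cell types gave these summed levels, in cpm, beside the members. Over all genes edgeR called 13.9% higher and 8.79% lower, limma-voom 13.6% and 11.4%, and DESeq2 18.8% and 14.2%. Oligodendrocyte markers were 58.5 to 109 in GUCY2Chi and 14.1 to 59.5 in GUCY2Cmed libraries, with 1 of 4 tested called higher by edgeR and 2 by limma-voom and DESeq2. Astrocyte markers were 19.1 to 35.0 and 21.3 to 32.4. Enteric neuron markers were 6.58 to 23.7 and 1.04 to 11.0, with none of 4 tested called by edgeR or limma-voom, 2 called higher by DESeq2 and 2 higher at an unadjusted p under 0.05. Enteric glia markers were 0.269 to 25.1 and 0.722 to 12.4, with Sox10 at most 0.755 in any library. Sensory neuron markers were 8.02 to 27.1 and 0 to 0.561, with the 1 tested gene called higher. Immune markers were 5.85 to 15.3 and 1.31 to 11.3, tuft markers 8.63 to 36.7 and 3.53 to 21.2, goblet markers 775 to 6822 and 1263 to 2885, and proliferation markers 34.5 to 62.7 and 79.2 to 195, with 1 of 3 called lower. Of the enterocyte markers 1 of 8 was called lower by edgeR, 6 by limma-voom and 7 by DESeq2. Their part in the levels of the members was not tested.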
